A study of Silurus asotus with 15 samples.

Results

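Among the gene models of the Amur catfish (Silurus asotus) that carry no protein name, 198 were expressed mainly in 1 of 15 tissues. These loci were chosen by their own expression. A locus was taken when its product was given as a hypothetical protein, its highest value over the 15 libraries was at least 20 FPKM, and the highest value plus 1 was at least 5 times the next highest plus 1. FPKM stands for sequenced fragments scaled to the length of the model and to all fragments mapped in the library. The 198 loci are part of 3751 unnamed loci with values, so 5.28% met the rule, against 7.17% of the 21313 loci with a protein name (1529 loci) and 6.89% of all 25064 annotated loci. Because the rule used these values, the levels below describe the loci and are not tests of them.

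The RNA came from adult fish of this bottom-living species, with 1 poly(A) paired-end library per tissue. The tissues were ovary, testis, liver, pancreas, brain, gill, muscle, heart, skin, pituitary, spleen, kidney, head kidney, maxillary barbel and mandibular barbel. The labels give no strain, sex, age in years, treatment or number of fish. Each tissue is therefore a group of 1 library, no spread between fish could be estimated, and every difference below is a difference between single libraries with no replicate check.

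A gene model is called a hypothetical protein when a coding sequence is predicted in the genome but the annotation assigns it no name. Such models include fast-evolving members of known families, lineage-restricted genes, short or fragmentary models and transposon-derived sequences. Genes used mainly by 1 organ tend to encode the products of its specialised cells, such as egg coat proteins in ovary, sperm components in testis, digestive enzymes in exocrine pancreas, plasma proteins in liver and contractile proteins in muscle. Domain matches (InterPro terms), Gene Ontology (GO) terms and neighbours on the scaffold are the clues left for a locus without a name.

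The labels of brain and gill went against the markers. All 4 nerve markers matched in the table were highest in the library labelled gill, and all 3 gill epithelium markers were highest in the library labelled brain, so these are called by their labels throughout. Of 32 markers of the other tissues, 26 were highest under their own label. Those that were not belonged to kidney (1 of 3 under its label), testis (3 of 5), spleen and head kidney (2 of 3), and skin and barbels (2 of 3). No counts were given and depth is unknown, but the smallest steps between low values were 4.37 to 6.61 times as large in muscle, skin and both barbels as in the library with the finest steps, and at most 1.12 times as large in the other libraries. Values near 0 are therefore coarser in those 4 libraries. Without the libraries labelled brain and gill, 162 unnamed loci met the rule, and 140 of them were among the 198. Without muscle, skin and both barbels, a setting chosen after seeing the data, 208 met it and 186 of these were among the 198.

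Ovary held 39 of the 198 loci, the library labelled brain 32, liver 31, testis 29, the library labelled gill 27, pancreas 17, muscle 9, heart 7, skin 3, and pituitary and spleen 2 each. Kidney, head kidney and both barbels held none. Over all annotated loci, the same rule took 1.58% in ovary, 0.439% in the library labelled brain, 1.13% in liver, 0.563% in testis, 1.51% in the library labelled gill, 0.303% in pancreas, 0.551% in muscle and 0.359% in heart. The shares in skin, pituitary and spleen were 0.0678%, 0.215% and 0.148%, and those in kidney and maxillary barbel 0.0279% and 0.00399%. The library labelled brain held 16.2% of the unnamed loci and 5.1% of the named loci that met the rule. That count of unnamed loci depends on the scale: with values rescaled by median ratios this library held 13 of 167 unnamed loci. Of its 32, 13 kept their call under both pseudocounts and both rescalings tried. In testis 15 of 29 did so, and in pancreas all 17. Named loci were not set beside these counts, so the excess itself was not followed across scales. By the rule as given, pancreas held 8.59% of the unnamed and 3.86% of the named loci. Testis held 14.6% and 7.33%, and the library labelled gill 13.6% and 23%. Ovary held 19.7% of the unnamed and 23.3% of the named loci, and liver 15.7% and 16.4%. In whole tissues, a larger number of cells of a type and more RNA per cell cannot be told apart.

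**Figure D1:**
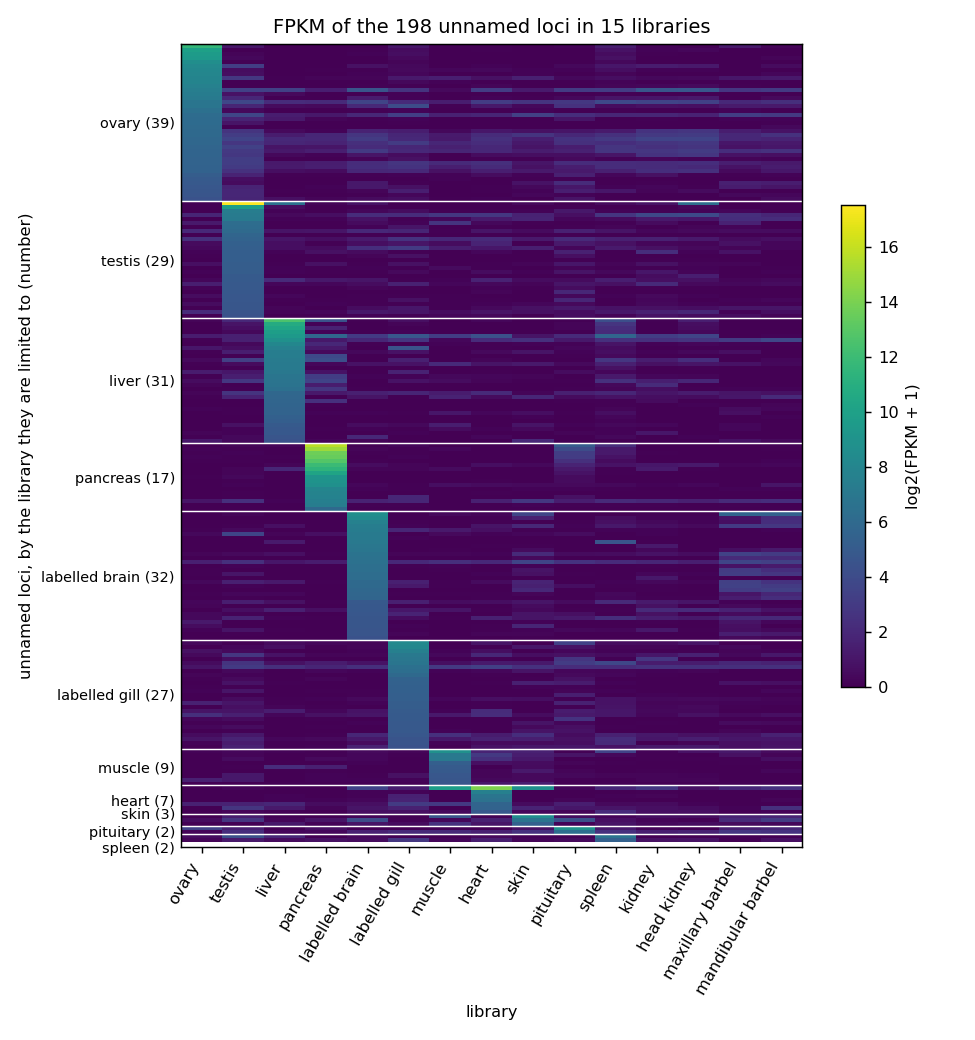
Level of the 198 unnamed loci (rows, grouped by the library each is limited to and ordered by level) in the 15 libraries (columns), as log2(FPKM + 1) with 1 library per column. The block on the diagonal was fixed by the rule; outside it, faint bands stand in testis for the ovary loci, in both barbels and skin for the loci of the library labelled brain, and in pituitary and spleen for the pancreas loci.

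In the library each was limited to, levels ran from 20.003 to 191378 FPKM, the median locus had 66.5 FPKM, 81 loci had at least 100 FPKM, 14 at least 1000 and 6 at least 10000. These 6 were C0J50_24638 in testis, C0J50_23556 in heart, and C0J50_06534, C0J50_04967, C0J50_04965 and C0J50_04966 in pancreas. The highest value plus 1 was a median 16.7 times the next highest plus 1, and at least 100 times for 33 loci. The next highest library was under 1 FPKM for 51 loci and at least 10 FPKM for 27, and 140 loci were listed at 0 in at least 1 library. Just inside the level limit lay C0J50_21148 (20.003 FPKM in testis), C0J50_13203 (20.1 in ovary) and C0J50_16615 (20.3 in the library labelled brain). Just outside lay C0J50_04766 (19.7 in ovary), C0J50_21967 (19.3 in ovary) and C0J50_23377 (19.1 in the library labelled brain). Just inside the ratio limit were C0J50_02035 (5.02), C0J50_02668 (5.04) and C0J50_18201 (5.04), and just outside were C0J50_05104 (4.99), C0J50_22591 (4.98) and C0J50_21956 (4.96).

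**Figure D2:**
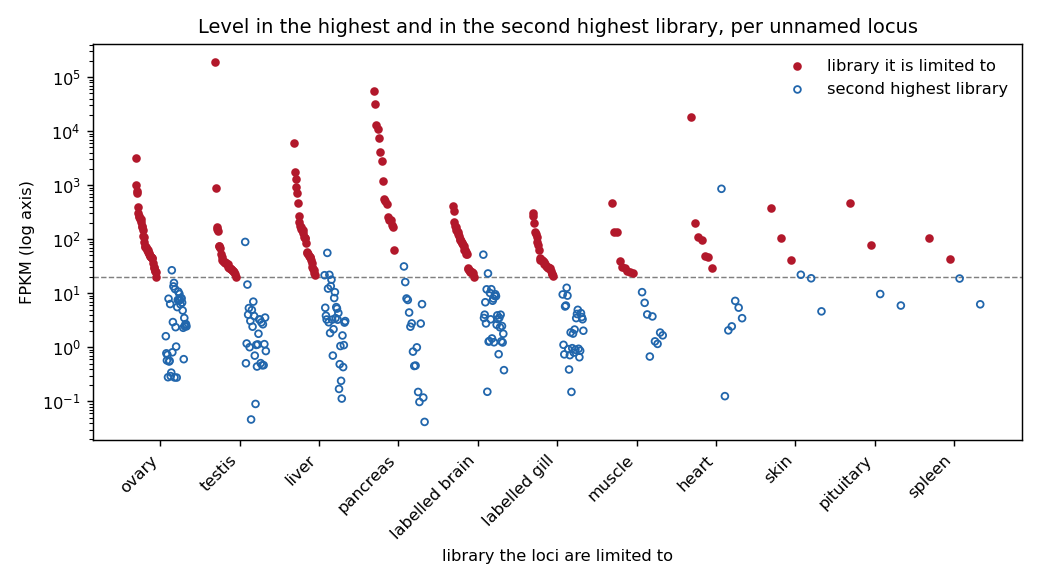
FPKM of each of the 198 unnamed loci in the library it is limited to (filled points, left) and in its next highest library (open points, right), on a log axis, with 1 point per locus and measure and the limit of 20 FPKM as a dashed line. Testis, heart and pancreas hold the 6 loci at 10000 FPKM or more, while no locus of the libraries labelled brain and gill reaches 1000 FPKM.

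In testis, 1 short locus stood far above the other 28. C0J50_24638 has 150 coding bases in 2 exons on scaffold178299 (1234617 to 1235678, plus strand, in the numbering of the deposited annotation, whose build is not named). It had 191378 FPKM in testis, 89.1 in liver, 77.0 in head kidney, 0.911 in kidney, 0.796 in the library labelled brain, 0.409 in spleen, 0.364 in skin and 0.194 in pancreas, and was listed at 0 in the other 7 libraries. It carries no InterPro term, no GO term and no Swiss-Prot cross reference. Its neighbours were leucine-rich repeat-containing protein 30 on the opposite strand, listed at 0 in testis, and a CD59B glycoprotein-like locus on the same strand, which had 20.4 FPKM in testis and 420.3 in liver. FPKM divides by length. The 29 testis loci made up 36.7% of the summed FPKM of testis but 7.49% when each value was multiplied by its coding length in kilobases. C0J50_24638 alone accounted for 36.3% and 7.09%.

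The other testis loci were lower, and 3 of those described here carry terms named for sperm or testis. C0J50_11269 (447 bases, 1 exon) had 893.8 FPKM in testis and 0.505 in liver, the next highest. It carries an immunoglobulin V-set domain, the fold of antibody variable regions and of many cell surface receptors, and is alone on its scaffold. C0J50_00558 had 171.3 FPKM in testis against 1.17 in pituitary and matches speriolin, a protein of the mouse sperm centrosome. C0J50_24630 (47.8 FPKM) carries the testicular haploid expressed repeat, C0J50_21264 (26.6 FPKM) a sperm-tail PG-rich repeat, and C0J50_02035 (39.1 FPKM) is a beta tubulin, a building block of microtubules. C0J50_09956, an insulin-like locus of 525 bases in 1 exon, had 52.9 FPKM in testis and 0.0460 in spleen, the next highest. C0J50_19919 (75.2 FPKM) carries the KCNE term of potassium channel beta subunits. A sodium/myo-inositol cotransporter locus that also met the rule in testis (49.4 FPKM) is its neighbour at 43146 bases. Its nearer neighbour, calsequestrin-2 at 2149 bases, was limited to heart (22.4 FPKM, with 0.686 in testis). The single-exon loci C0J50_19402 (74.4 FPKM) and C0J50_19405 (140.4 FPKM) lie among SP140 and SP110 nuclear body loci that had at most 2.52 FPKM in testis. Of the 29 testis loci, 10 carried neither a term nor a cross reference.

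Loci with a domain of egg coat proteins were among the highest unnamed loci of ovary. Ovary held the most unnamed loci by the rule as given (39, against 31 in liver), but not with a pseudocount of 5 (25 in ovary and 29 in liver), a ratio of 10 (19 and 25) or median ratios (19 and 40). The zona pellucida (ZP) domain, by which proteins of the coat around the egg polymerise, was carried by 4 of the 39. C0J50_22715 had 999.2 FPKM in ovary and at most 0.772 elsewhere, and C0J50_22714, which overlaps it on the opposite strand, had 208.7. C0J50_23906, with EGF-like domains beside the ZP domain, had 721.5 FPKM, and C0J50_00515 had 240.8 FPKM next to a named zona pellucida glycoprotein 3d locus at 278.5. Of these 4, only C0J50_00515 shared its cross reference with named loci, all 8 of them zona pellucida loci. Over the whole annotation 50 loci carry the ZP term, and 21 of them met the rule in ovary, 17 of these being named. The counting is not stated to use strand, so fragments of C0J50_22715 and C0J50_22714 cannot be told apart where the models overlap.

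The highest ovary locus was C0J50_23595 (231 bases, 4 exons), with 3169 FPKM in ovary, 1.602 in spleen, 1.304 in maxillary barbel, 1.14 in the library labelled gill, 1.06 in testis and at most 0.190 in the other libraries. Its only term is a WxxW domain. C0J50_18051 (588 bases, 1 exon, no term) had 797.6 FPKM in ovary and at most 0.570 elsewhere. C0J50_21409 (2019 bases, 2 exons, no term) had 399.3 FPKM in ovary and at most 0.279 elsewhere, and lies next to bucky ball, which organises the Balbiani body of the zebrafish oocyte and had 167.8 FPKM in the same library. C0J50_18523 (258.9 FPKM) matches the stem-loop-binding protein of histone mRNA and C0J50_16843 (237.0 FPKM) a histone H2B. C0J50_00749 (87.6 FPKM) matches Spire, an actin nucleator that acts in mouse oocyte division. The locus named protein spire homolog 2, with the same cross reference, had 0.280 FPKM in ovary and was highest in the library labelled gill (38.1 FPKM). The pair C0J50_12450 (309.6 FPKM) and C0J50_11559 (146.0 FPKM), each alone on its scaffold, share the pentaxin terms and a cross reference with each other, so their fragments may be split uncertainly. For 23 of the 39 ovary loci (59.0%) the next highest library was testis, as it was for 155 of the 356 named ovary loci (43.5%).

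Pancreas loci were few and very high. The 17 made up 17.5% of the summed FPKM of the library, or 12.8% when multiplied by coding length. Of these, 10 carry the domain of trypsin-type serine proteases, the digestive enzymes of the exocrine cells. C0J50_06534 had 54857 FPKM in pancreas, 31.4 in pituitary, 3.66 in spleen and at most 0.222 in the other libraries, and lies next to a named cationic trypsin-3 locus with 81708 FPKM. On scaffold383, C0J50_04965 (13028 FPKM), C0J50_04966 (11204 FPKM), C0J50_04967 (31790 FPKM) and C0J50_04968 (7549 FPKM) follow a trypsinogen locus (C0J50_04964, 65788 FPKM) in 1 unbroken run on the minus strand. All 4 share 1 cross reference. Except for C0J50_04967, which has 195 bases in 2 exons, they have 729 coding bases in 6 exons each. Their sequences were not compared. Copies of 1 family in a row may share fragments, so the split between them is uncertain. Over the annotation, 104 loci carry the trypsin domain and 21 of them met the rule in pancreas.

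Of the other pancreas loci, 1 carried neither a term nor a cross reference, and the rest carried domains other than that of trypsin. C0J50_07875 (162 bases), with the Kazal domain of small protease inhibitors, had 2781 FPKM in pancreas against 2.77 in liver. The C1q domain, a trimerising fold of secreted proteins, was carried by C0J50_10594 (515.0 FPKM), its neighbour C0J50_10595 (168.3 FPKM) and C0J50_12562 (253.3 FPKM). No named locus with this domain met the rule in pancreas. Over the annotation 55 loci carry it, and 3 met the rule in pancreas and 5 in liver, 3 of the latter named. The adjacent single-exon loci C0J50_22589 (548.0 FPKM) and C0J50_22590 (187.1 FPKM) each have 405 bases and a C2 domain, a fold that often binds calcium and membranes. For 9 of the 17 (52.9%) the next highest library was pituitary, and for 30 of 59 named pancreas loci (50.8%).

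The highest unnamed liver locus was of the Spot 14 family. C0J50_15302 (417 bases, 1 exon) had 6018 FPKM in liver, 21.6 in pancreas, 17.3 in spleen and at most 2.98 elsewhere. A rodent member of its family responds to thyroid hormone and promotes lipid synthesis. C0J50_15302 shares its cross reference with a locus named mid1-interacting protein 1A, which had 0.942 FPKM in liver and was highest in maxillary barbel (218.7 FPKM). C0J50_20622 (420 bases, 3 exons, no InterPro term) had 1778 FPKM in liver against 5.39 in spleen. It lies between apolipoprotein C-I (9908 FPKM) and apolipoprotein C-II (397.6 FPKM), carriers of blood lipids that both met the rule in liver. C0J50_11792, a serpin, of the family of protease inhibitors abundant in plasma, had 1286 FPKM in liver against 3.83 in spleen. C0J50_16582 (920.9 FPKM) and C0J50_16581 (145.8 FPKM) are adjacent and carry the C1q domain.

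Clusters were common among the liver loci. On scaffold249, C0J50_03642 (37.1 FPKM) and C0J50_03645 (41.1 FPKM) flank alpha-2-HS-glycoprotein (794.1 FPKM) and histidine-rich glycoprotein (1227 FPKM), both secreted by liver. The 3 loci of the annotation with a fetuin-B-type cystatin domain, of which these are 2, all met the rule in liver. C0J50_08897 (86.2 FPKM) and C0J50_08898 (52.9 FPKM) are adjacent and are the only loci with the Apple domain term, a domain of the mammalian plasma proteins prekallikrein and factor XI. On scaffold1045, single-exon loci without any InterPro term follow each other on the plus strand. C0J50_07838 had 109.4 FPKM in liver, C0J50_07840 704.4, C0J50_07842 271.8 and C0J50_07843 171.0, while the unnamed single-exon loci between or beside them had 1.91 (C0J50_07839), 8.74 (C0J50_07841) and 17.7 FPKM (C0J50_07844) in liver. C0J50_07840 was less closely limited than most, with 55.9 FPKM in pancreas, 52.9 in spleen and 26.2 in the library labelled gill. Of the 31 liver loci, 14 carried neither a term nor a cross reference, the most of any library.

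In heart, C0J50_23556 (540 bases, 5 exons, scaffold178278, 558015 to 561231, plus strand) stood above the other 6. It had 18460 FPKM in heart, 858.8 in muscle, 431.0 in skin, 10.8 in the library labelled brain, 6.11 in kidney, 4.54 in mandibular barbel, 2.69 in maxillary barbel, 2.67 in spleen and 1.51 in the library labelled gill. Head kidney, pituitary and testis had 0.708, 0.252 and 0.158 FPKM, and liver, ovary and pancreas were listed at 0. The locus carries the troponin term, of the proteins that make striated muscle contraction depend on calcium, and accounted for 4.65% of the summed FPKM of heart. It met every alternative rule but a tau index of at least 0.9. Its neighbour troponin I4b was limited to skin (54.0 FPKM, with 8.99 in heart), and a troponin I of slow skeletal muscle, C0J50_23554, had 550.6 FPKM in heart. C0J50_00983 (345 bases, no term) had 196.7 FPKM in heart and at most 0.124 elsewhere. It lies between loci named for calmodulin-binding transcription activators, 237913 and 85631 bases away, that had at most 0.245 FPKM in heart. C0J50_22353 (111.4 FPKM) and C0J50_22354 (97.6 FPKM) are adjacent, and the first carries the term of HSP20, a family of small heat shock proteins. The locus after them, C0J50_22355, was limited to the library labelled gill, with 310.7 FPKM there against 9.50 in pituitary and 0.930 in heart.

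Muscle held 9 unnamed loci and skin 3, of mixed families. C0J50_11253 had 473.1 FPKM in muscle and 10.5 in spleen, and C0J50_01135 had 137.1 in muscle and 6.65 in heart. Both carry a RING finger and a COS domain, found together in the muscle ubiquitin ligases of the MuRF type, and C0J50_01135 shares a cross reference with a locus named tripartite motif-containing protein 55. The annotation holds 12 loci with the COS domain, and 4 met the rule in muscle. C0J50_15222 (136.7 FPKM) is a heat shock protein 70 locus, and C0J50_07781 (25.03 FPKM) and C0J50_07782 (23.9 FPKM) are adjacent atypical dual specificity phosphatases. The other 4 muscle loci had 25.6 to 38.9 FPKM and carry a CBM21 carbohydrate-binding domain (C0J50_23131), ankyrin repeats with a glutaminase term (C0J50_01938), a tRNA-binding domain (C0J50_06486) and a protein kinase domain (C0J50_20458). In skin, C0J50_21453, with an EF-hand domain, a fold that often binds calcium, had 373.1 FPKM against 22.0 in muscle. It shares its cross reference with a locus named myosin light chain 6B, which had 0.207 FPKM in skin and 13.7 in muscle. C0J50_23008, with the troponin term, had 42.0 FPKM in skin against 4.62 in muscle. It shares its cross reference with a slow skeletal troponin I locus that was highest in skin (31.3 FPKM). C0J50_17899 (no term) had 104.2 FPKM in skin and 18.9 in pituitary. With a pseudocount of 5, C0J50_17899 and C0J50_23008 no longer met the rule (ratios 4.56 and 4.88). The 3 muscle markers had 11.0 to 85.5 FPKM in skin, against 2153 to 12680 FPKM in muscle, and their part in the skin levels was not tested.

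The library labelled brain held 32 unnamed loci, 29.1% of all 110 loci limited to it by the rule as given. C0J50_22420 led with 415.3 FPKM there, 51.8 in maxillary barbel, 41.7 in mandibular barbel, 11.7 in skin and at most 0.392 in the other libraries. It carries the MAL term, of membrane proteins of apical transport and myelin, and shares a cross reference with a named locus at 839.0 FPKM in the same library. It no longer met the rule with a ratio of 10, with a tau index of at least 0.9, or with values rescaled by median ratios (ratio 3.50) or to a common sum (4.92). C0J50_12882 (334.3 FPKM), C0J50_12883 (204.3 FPKM) and C0J50_00477 (53.0 FPKM) share a cross reference with a locus named sialic acid synthase at 129.6 FPKM in this library. C0J50_12882 and C0J50_12883 are partial single-exon models of 132 and 216 bases on scaffolds of their own. Multiplied by coding length in kilobases, their values in this library were both 44.13, so their FPKM here differ by length alone. That did not hold at the low values of mandibular barbel (3.49 and 4.01 FPKM) and skin (1.97 and 0). Whether they are pieces of 1 gene was not tested. The remaining loci were of mixed families. C0J50_20001, with the catalytic domain of calpain peptidases, had 172.9 FPKM against 6.81 in maxillary barbel. The single-exon C0J50_16997 (74.6 FPKM) and C0J50_16998 (125.3 FPKM) match the inward rectifier Kir1.1, a potassium channel of mammalian kidney epithelium, and lie near 2 named loci of this channel with 133.7 and 101.4 FPKM. C0J50_02850 (151.4 FPKM) is a claudin, a protein of tight junctions, and C0J50_15096 (139.4 FPKM) and C0J50_15097 (166.7 FPKM) are adjacent PLAC8 loci. C0J50_24867 (116.7 FPKM) carries a galectin domain that binds sugars, and C0J50_16305 (29.5 FPKM) matches the CXC chemokines. A fibrinogen C-terminal domain (C0J50_17346, 138.7 FPKM), an ependymin term (C0J50_07323, 102.8 FPKM), a trypsin domain (C0J50_02403, 85.2 FPKM) and immunoglobulin V-set domains (3 loci) were also carried. For 19 of the 32 (59.4%) the next highest library was skin or a barbel, and for 36 of 78 named loci of this library (46.2%).

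The library labelled gill held 27 unnamed loci, 7.12% of those limited to it. C0J50_22355, above, matches the FAM131 family. C0J50_23585 had 273.6 FPKM and at most 1.11 elsewhere, and carries a peptidase M20 domain. C0J50_18397 (354 bases in 6 exons, no term) had 198.3 FPKM and at most 0.738 elsewhere. C0J50_17822 (136.3 FPKM) is a beta tubulin and C0J50_04474 (122.8 FPKM) matches a schwannomin-interacting protein. C0J50_00675, the lowest of the 27 (20.7 FPKM), matches a tubulin polymerisation-promoting protein, known from myelinating cells in mammals. Also carried were the CD20-like family term (C0J50_22887 and C0J50_06741), immunoglobulin domains (C0J50_23504 and C0J50_08741), a ricin B lectin domain (C0J50_11895) and a RING finger (C0J50_03749). Of the 27, 14 carried an InterPro term and 8 had neither a term nor a cross reference. The single-exon C0J50_22427 (63.1 FPKM) lies next to a voltage-dependent P/Q-type calcium channel locus, of the kind that triggers transmitter release, which also met the rule in this library (75.3 FPKM). For 8 of the 27 (29.6%) the next highest library was pituitary, and for 162 of 352 named loci (46.0%).

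Pituitary and spleen held 2 unnamed loci each. C0J50_19547 (312 bases, 3 exons) had 475.5 FPKM in pituitary, 9.67 in ovary, 2.64 in mandibular barbel, 1.95 in maxillary barbel and 1.91 in testis, and carries the term of the CART satiety factor, a neuropeptide that curbs feeding in mammals. C0J50_21348 had 79.5 FPKM in pituitary and 5.92 in maxillary barbel, with a SPRY domain. C0J50_01768 had 107.5 FPKM in spleen and 18.7 in testis and carries an integrase core, a domain of retroviruses and transposable elements. C0J50_08118, with immunoglobulin domains, had 43.0 FPKM in spleen and 6.24 in the library labelled gill. Neither spleen locus met the rule with a pseudocount of 5 (ratios 4.74 and 4.27).

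The models of the 198 loci were shorter and simpler than those of named genes. Their median coding length was 730.5 bases (range 114 to 4647), against 660 in the other 3553 unnamed loci, 1146 in the named loci that met the rule and 1266 in all named loci. They had a median of 3 coding exons (up to 21), against 2, 6 and 7. A single coding exon was found in 45 (22.7%), against 37.9%, 9.48% and 8.55%. The models are coding sequences without untranslated regions, and 79 of the 198 (39.9%) are marked partial. Higher loci were shorter: the median length was 838.5 bases for the 82 loci at 20 to 50 FPKM and 513 bases for the 14 loci at 1000 FPKM or more. FPKM is computed per length, so length is not independent of the rule. With the limit set on FPKM times kilobases, 181 loci met the rule and 165 of them were among the 198.

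An InterPro term was carried by 133 of the 198 (67.2%), against 57.0% of the other unnamed loci, 95.1% of named loci that met the rule and 93.9% of all named loci. GO terms were found for 88 (44.4%), against 36.9% of the other unnamed loci and 75.4% of the named loci that met the rule. The 133 loci carried 174 different InterPro terms, and 45 of these were carried by more than 1 locus. A Swiss-Prot cross reference was given for 136 loci. Of these, 56 shared it with a named locus, and for 8 of the 56 such a named locus met the rule in the same library. For 25 of the 56 the highest such named locus was highest in the same library, whether or not it met the rule. No other locus of the annotation carried the cross reference of 63. None of these annotations was given for 50 loci (25.3%), against 34.6% of the other unnamed loci and 0.719% of named loci that met the rule. These 50 had a median length of 618 bases and 2 exons, with 23 single-exon models and a median of 63.8 FPKM. The 148 annotated ones had 754.5 bases, 4 exons, 22 single-exon models and 69.2 FPKM.

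**Figure D3:**
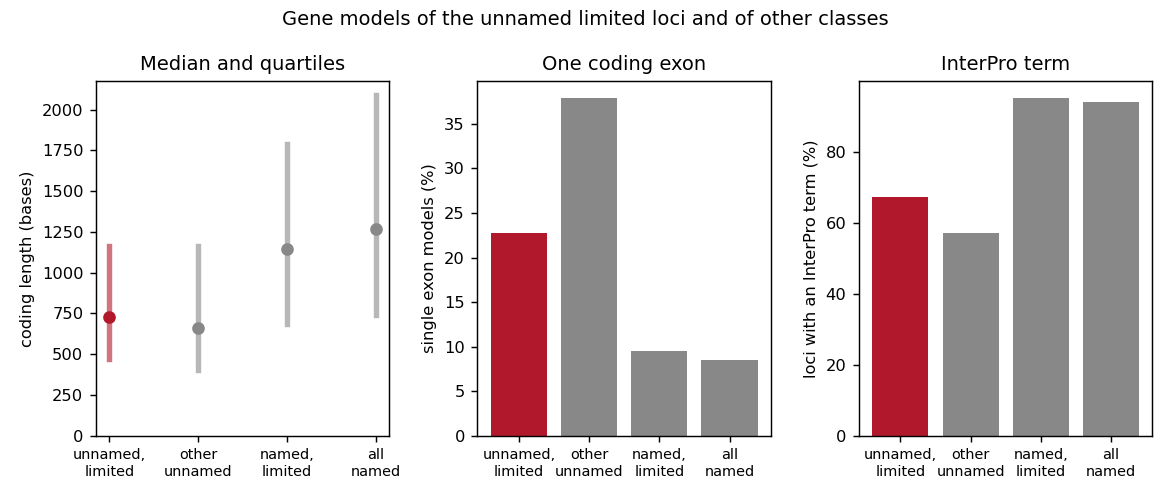
Gene models of the 198 unnamed loci that met the rule (red), of the other unnamed loci, of named loci that met the rule and of all named loci (grey): median coding length with quartiles (left), share of models with a single coding exon (middle) and share with an InterPro term (right). The limited unnamed loci have a median of 730.5 bases, 22.7% single-exon models and 67.2% with a term, between the other unnamed loci and the named classes in all 3 panels.

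The 198 loci lay on 112 scaffolds. A locus was annotated on both sides of 180, on 1 side of 5, and on neither side of 13, which are alone on their scaffold. The median gap to the nearest neighbour was 3164 bases, and 6 overlapped a neighbour. An adjacent locus limited to the same library was found for 42 of the 198 (21.2%), against 164 of the 1529 named loci that met the rule (10.7%). For 28 of the 42 that neighbour was unnamed as well. Of all annotated loci, 1.64% had a neighbour limited to a given library, averaged over libraries weighted by their unnamed limited loci. Such neighbours were commonest in pancreas (9 of 17, against 10 of 59 named loci), heart (3 of 7, against 7 of 83) and liver (13 of 31, against 51 of 251). They were found for 6 of 32 loci of the library labelled brain (8 of 78 named), 5 of 39 in ovary (29 of 356), 3 of 29 in testis (11 of 112) and 1 of 27 in the library labelled gill (27 of 352). With only neighbours on the same strand, the 42 became 35. Adjacent loci share libraries, and overlapping or near-identical models can share fragments.

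**Figure D4:**
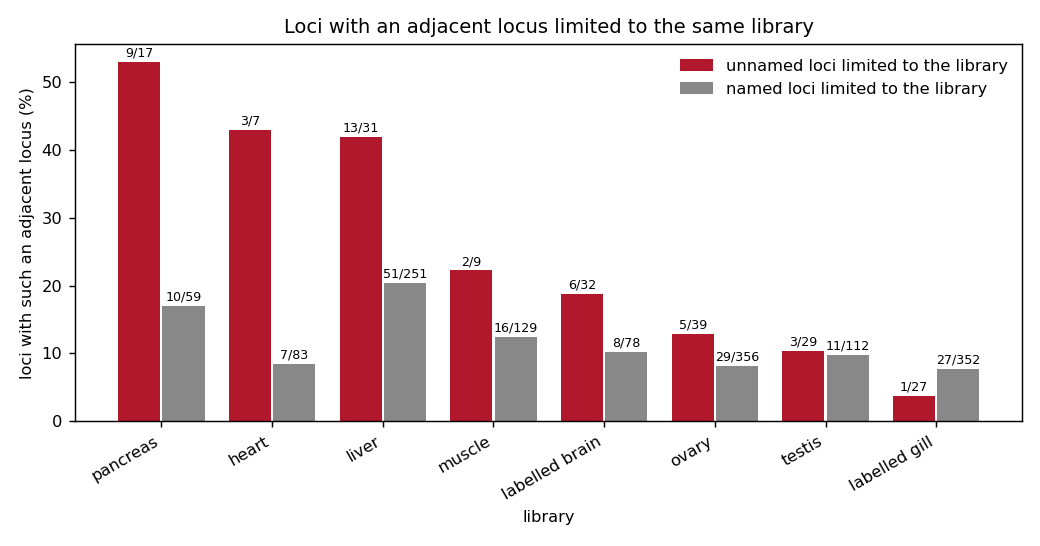
Share of loci with an adjacent locus limited to the same library, for the unnamed loci (red, left bar) and the named loci (grey, right bar) of 8 libraries, with counts over the bars. The unnamed share is highest in pancreas (9 of 17) and lowest in the library labelled gill (1 of 27), the only one of the 8 where the named share is higher.

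The neighbours formed 26 unbroken runs with 42 of the 198 loci and 17 named ones, 4 of them of 3 or more loci and 12 of unnamed loci alone. The longest was the trypsin run of 5 loci in pancreas described above. It was followed by the fetuin run of 4 in liver, the apolipoprotein run of 3 in liver, and a run of 3 in the library labelled brain. In that run, a sodium:neurotransmitter symporter locus (C0J50_17003, 27.9 FPKM) follows the 2 named Kir1.1 loci. Within 50 kb of each other, 37 of the 198 loci formed 16 clusters. Levels within a cluster differed. In the trypsin cluster the limited unnamed loci had between 7549 and 31790 FPKM, and the next unnamed locus had 0.00879 FPKM (C0J50_04969). In the Kir1.1 cluster, the unnamed channel loci C0J50_16999 and C0J50_17000 had 4.24 and 0.281 FPKM beside neighbours of 74.6 to 133.7.

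**Figure D5:**
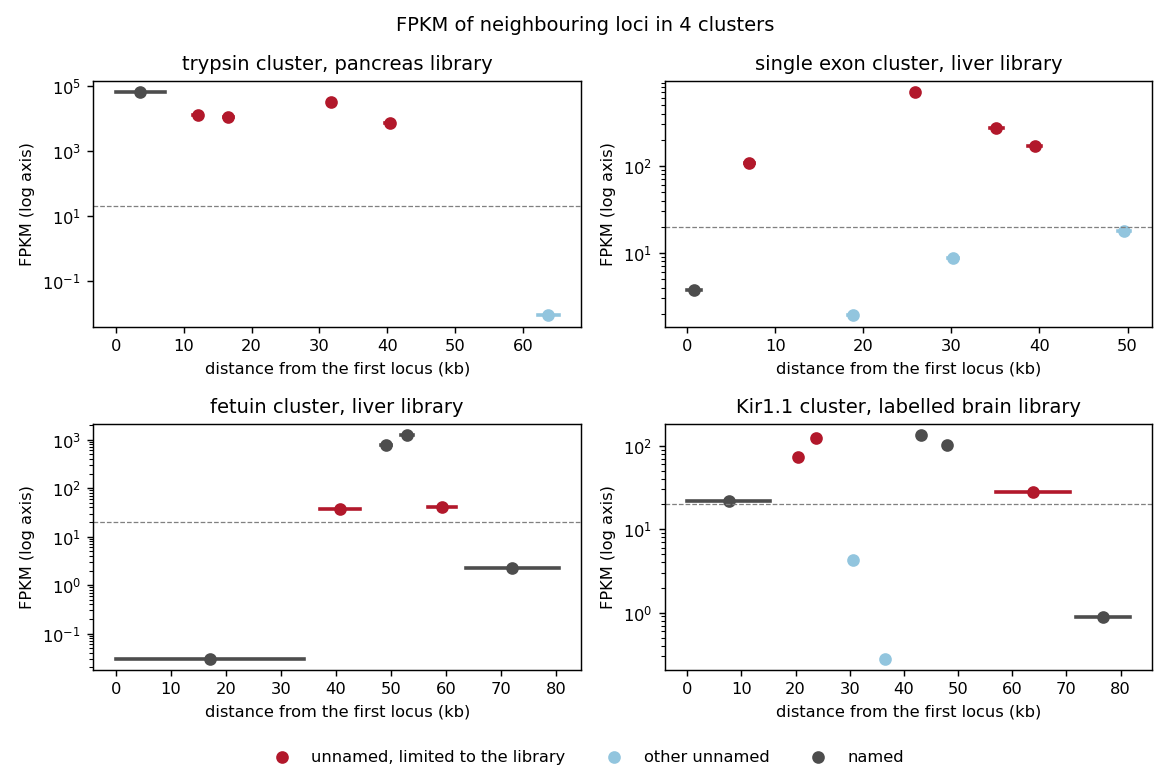
FPKM (log axis) of neighbouring loci by their distance from the first locus drawn (kb), in the library named above each panel: the trypsin cluster in pancreas, the single-exon cluster and the fetuin cluster in liver, and the Kir1.1 cluster in the library labelled brain. Red loci are unnamed and limited to the library, blue loci are other unnamed loci, dark loci are named, and the dashed line is 20 FPKM; unnamed loci below the line stand next to limited ones in 3 of the 4 panels.

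Profiles over the 15 libraries were compared with those of named loci as a description, by Pearson correlation of log2(FPKM + 1). Each such value rests mostly on the 1 library where both loci are high, and all loci share the same libraries. The likest named loci of C0J50_06534 were a syncollin-like locus (r = 0.9998, 63124 FPKM in pancreas) and an astacin protease locus (r = 0.9998), both of the exocrine pancreas. Those of C0J50_15302 were hemopexin (r = 0.995, 7587 FPKM in liver), a plasma carrier of heme, and a serine proteinase inhibitor of clade A (r = 0.985). C0J50_23595 was most like a ZAR1-like locus (r = 0.993, 1174 FPKM in ovary), related to a maternal effect gene of mouse, and zona pellucida glycoprotein 2 (r = 0.993). C0J50_23556 was most like the slow skeletal troponin I named above (r = 0.968), and C0J50_21453 like a regulatory myosin light chain 10 (r = 0.986, 155.7 FPKM in skin). In 3 other libraries the likest named locus was under 1 FPKM. For C0J50_11253 in muscle it was a macrophage mannose receptor 1-like locus (r = 0.962, 0.0276 FPKM in muscle), for C0J50_22355 in the library labelled gill a gastrula zinc finger locus (r = 0.995, 0.294 FPKM), and for C0J50_19547 in pituitary a type II keratin 8 (r = 0.962, 0.925 FPKM). The likest to C0J50_01768 was a liver-expressed antimicrobial peptide 2 locus (r = 0.969, 6.93 FPKM in spleen), and to C0J50_22420 a GTPase IMAP family member 8-like locus (r = 0.998, 64.1 FPKM in the library labelled brain). C0J50_24638 had no named locus at r of 0.95 or more: the likest was semaphorin-4E (r = 0.942), with 2648 FPKM in testis.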

How the data were processed

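Poly(A) RNA of 15 tissues of adult Silurus asotus was sequenced, with 1 library per tissue. The authors deposited FPKM per locus, made with StringTie 1.3.4d per the submitters' processing notes. Aligner, build and filters: not given in the sources used here. A deposited feature table gives scaffold, coding exons, product, InterPro and GO terms and cross references for 25122 loci. Of 25089 loci with FPKM, 25064 were in it by locus tag, and 58 annotated loci had no FPKM. Its transcript and coding spans were equal at every locus, so lengths are coding lengths.

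A locus was called limited to 1 library at 20 FPKM or more and a ratio of at least 5 between the highest and the next highest value, each plus a pseudocount of 1. Values were otherwise used as deposited. No counts were given, so depth is unknown, and the fold on this scale understates that of low loci. With 1 library per tissue no test was run. Neighbours are the nearest annotated loci on the same scaffold. The step between low values was read from the commonest low value of FPKM times length, and depth itself was not measured. The FPKM columns sum to different totals, so they are not TPM. The code of the rule was run on simulated profiles made to meet or to miss it, which checks the code and not the limits chosen. Named loci were the 2 loci C0J50_24638 and C0J50_23556, the 3 highest per library and the 3 highest with a term, members with a member as neighbour, those nearest each limit, neighbours of named loci, and for the highest locus per library the 2 likest named loci. Other loci named were chosen after their values were seen. The members, lists and rules were chosen with earlier results of these data known. Alternatives were other pseudocounts, limits, scalings, libraries left out and lengths. Python 3.11.15, numpy 2.4.6, pandas 2.3.3 and matplotlib 3.10.9 were used.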

Additional observations from a re-analysis of the deposited data

How the results depend on the processing

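The 198 loci became 212 with a pseudocount of 0.1 and 144 with 5, 244 with a minimum of 10 FPKM and 116 with 50, 130 with a ratio of 10, 152 with a tau index of at least 0.9, 167 with values rescaled by median ratios and 204 with a common sum. Under both pseudocounts and both rescalings, 126 of the 198 kept their call, among them all 17 of pancreas and 29 of 31 of liver, but 13 of 32 of the library labelled brain, 19 of 39 of ovary and 0 of spleen. Only complete models, a setting chosen after seeing the data, left 119. Counts per library that moved by more than 1.5 times were as follows, and the cause was not tested beyond the setting's own construction. With a pseudocount of 0.1 maxillary barbel had 1; with 5 the library labelled brain had 20, muscle 5, ovary 25, skin 1 and spleen 0. With a minimum of 10 FPKM kidney had 1 and testis 46; with 50 the library labelled gill had 9, heart 4, muscle 3, spleen 1 and testis 9. With a ratio of 10 the library labelled brain had 18, heart 4, ovary 19, skin 1 and spleen 0. With tau mandibular barbel had 2, pituitary 1, spleen 1 and testis 19. With median ratios the library labelled brain had 13, maxillary barbel 1, muscle 14, ovary 19, skin 5 and testis 17. A common sum gave 45 in the library labelled gill. Leaving out both libraries of doubtful label gave 5 in pituitary and 7 in spleen, 1 of which (C0J50_17346) had been called in the library labelled brain. Without maxillary barbel, mandibular barbel had 6 and skin 5; without mandibular barbel, maxillary barbel had 7. With coding lengths of at least 300 bases heart had 4. With complete models the library labelled brain had 20, the library labelled gill 16, heart 4, liver 13, muscle 3, ovary 25, pituitary 1 and spleen 0. Over the alternatives run, the median coding length lay between 672 and 933 bases, the median exon number between 3 and 4, the share with a term between 61.3% and 72.4%, and the count with a like neighbour between 35 and 48. For the highest 3 loci per library, taken over the settings, 444 values were labelled the same and 21 weaker. Settings that leave out libraries, short models or partial models also remove some of these loci. The labels are therefore not a count of calls kept or lost. These loci were picked by their level, and other pseudocounts and limits cannot change which library is highest. The counts are therefore a description and not a check of the loci. No paired analysis was possible because the labels give no replicate numbers and each tissue has 1 library. Values near 0 were coarser in muscle, skin and both barbels, and depth itself is unknown.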

Other observations

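No unnamed locus was limited to 1 of the 2 barbel libraries. With either barbel library left out, 8 further unnamed loci met the rule in the remaining barbel, 5 of them both ways. Of these 5, 4 carry a zona pellucida domain. Over the annotation 50 loci carry this domain, and 21 of them met the rule in ovary, so the domain alone did not mark a locus limited to ovary. C0J50_08508 had 486.2 FPKM in mandibular barbel, 283.9 in maxillary barbel and 14.5 in the library labelled brain, and C0J50_21435 had 206.5, 292.4 and, in skin, 18.5. C0J50_08510 had 120.5 and 56.6 FPKM in mandibular and maxillary barbel and 1.01 in the library labelled brain. C0J50_08511 had 23.1, 21.7 and, in skin, 0.593. The ovary loci with the same domain, described above, were different loci.

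The highest loci had small values in other libraries, of which a few chosen after seeing the values are given here. For the 8 pancreas loci of at least 1000 FPKM, the pituitary value was 4.56 to 6.90 per 10000 of the pancreas value (median 5.89), and for 24 named pancreas loci it was 4.58 to 507.5 (median 5.57). For the 3 liver loci, the spleen value was 28.8 to 30.3 per 10000 of the liver value, and for 29 named liver loci it was 17.7 to 302.4 (median 26.5). In pancreas the same 3 liver loci had 0.788 to 35.9 per 10000, so the level was not constant there. C0J50_24638 had 4.66 in liver and 4.03 in head kidney per 10000 of its testis value. For 2 named testis loci the values were 4.34 and 198.1 in liver, and 4.53 and 48.7 in head kidney. The source of these levels was not tested.

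Of the 25 loci with FPKM that are not in the annotation, 2 met the same rule. C0J50_17922 had 133.4 FPKM in muscle against 16.4 in heart, and C0J50_21118 had 225.5 FPKM in liver against 23.6 in pancreas.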
